A study of Capra hircus with 10 samples.

Results

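LMO7 gave rise to 9 of the 1327 circRNAs counted in IMPA, the preadipocytes of goat intramuscular fat, and in IMA, the adipocytes grown from them. They were taken as every circRNA whose host gene is named LMO7 in the deposited circRNA table, with repeated entries dropped. The gene itself was chosen by the measured junction reads of its circRNAs, which differed between IMA and IMPA in these same libraries, so its junction reads, its non-junction reads and all shares made from them are given as a description of the libraries. Fits and counts of calls are printed for these values to show their size, and they are no evidence for a difference. IMPA were wild-type (WT) cells on day 0 and IMA were WT cells on day 3 of adipogenic differentiation, both labelled as intramuscular fat and each with 5 libraries. The cells were isolated from the longissimus dorsi of 3 male Jianzhou goats that were 7 days old, grown in culture, and induced in a serum medium with 50 µmol/L oleic acid. Since the goat behind each library is not stated, and 3 goats cannot give 5 separate animals per group, the SDs describe the spread between libraries.

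LMO7 is a large scaffold protein with a calponin homology domain, a PDZ domain and a LIM domain. It is known to bind afadin and α-actinin at adherens junctions, which ties cell contacts to the actin cytoskeleton, and to bind emerin at the nuclear envelope. A circRNA forms when the spliceosome joins the donor site at the downstream edge of an exon to the acceptor site at the upstream edge of the same or an earlier exon. The product is a closed ring that lacks the free ends of a linear mRNA. The only reads that separate it from linear RNA are junction reads, which cross this back-splice join. One gene can give several rings when different donors and acceptors are paired.

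The 2 rings with the highest ratio of IMA to IMPA were circ_0006499 and circ_0006511. The study lists both as upregulated in these same libraries. They were also the LMO7 rings among the circRNAs of several genes that it measured by qRT-PCR, where it reports both as upregulated. Their primers are shown because they bear the relation between both rings. The forward primers differ, and the primer in capitals is the reverse primer used for both.
circ_0006499 forward: tcagttgaagcaggtagccc
circ_0006511 forward: ttcaaaagatctatggtgagaacg
circ_0006499 and circ_0006511 reverse: AGTGTTGGGAACGCTTGTCT
The forward primers have 20 and 24 bases and the shared reverse primer has 20.

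LMO7 ranked second of 945 named host genes by number of circRNAs. CEP112 had 11, the median was 1, and 701 genes had a single circRNA. The LMO7 rings lay on the minus strand of chromosome 12 between positions 35518099 and 35564342, a stretch of 46244 nt in the coordinates of the deposited table, which places them on a RefSeq chromosome sequence and does not name the genome build. On this strand the higher coordinate of a ring is its upstream edge, at the acceptor, and the lower one its downstream edge, at the donor. All 9 were listed as made of LMO7 exons, and 15 distinct exons were listed in all.

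**Figure D1:**
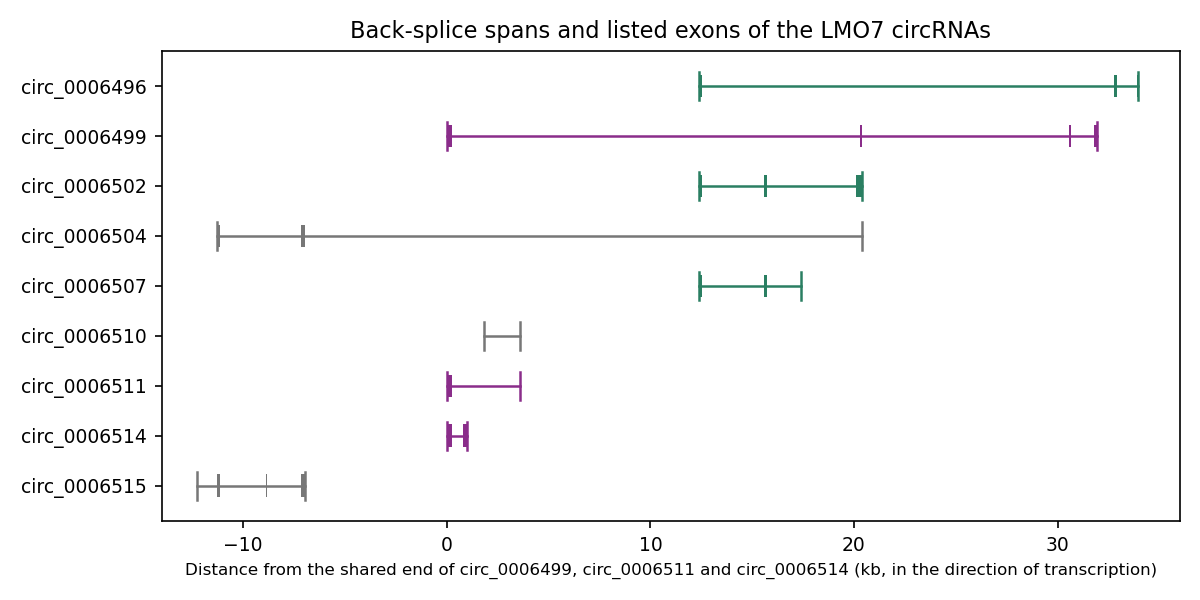
Spans of the 9 LMO7 circRNAs (thin lines with end ticks) and their listed exons (thick bars, to scale) against the distance in kb from the upstream edge of circ_0006499, with transcription running left to right. The purple rings begin at one shared upstream edge at 0 kb, the green rings begin at another, and the grey rings each begin at an edge of their own.

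The rings fell into families by their acceptor. The upstream edge at 35552054 was shared by circ_0006499, circ_0006511 and circ_0006514, which all list the 279-nt exon from 35551776 to 35552054. The upstream edge at 35539653 was shared by circ_0006496, circ_0006502 and circ_0006507, which all list the 118-nt exon from 35539536 to 35539653. The remaining upstream edges, those of circ_0006504, circ_0006510 and circ_0006515, were each used by 1 ring.

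Donors were shared as well, across these families. The downstream edge at 35531651 belonged to circ_0006502 and circ_0006504, and that at 35548439 to circ_0006510 and circ_0006511. The latter edge is that of a 30-nt exon, from 35548439 to 35548468. In circ_0006511 this exon is joined to the 279-nt exon, which gives a ring of 309 nt. In circ_0006510 it is the only exon listed, and its 30 nt was the smallest spliced length among all 1327 circRNAs. That list does not reach the upstream edge of circ_0006510 at 35550205, so the ring may hold sequence that is not listed.

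circ_0006499 is the longest ring, with 667 nt from 4 listed exons inside a span of 31929 nt, from 35520126 to 35552054. Besides the 279-nt exon it lists exons of 162, 115 and 111 nt in the downstream part of its span. The table lists for it none of 5 exons that lie inside its span and are listed for other LMO7 rings. Among the 5 is the 309-nt exon of circ_0006502, which covers the 111-nt exon of circ_0006499 and shares that exon's downstream edge. circ_0006502, at 35531651 to 35539653, has 570 nt from 3 exons, and circ_0006514, at 35551065 to 35552054, has 480 nt from 2. circ_0006515, at 35559035 to 35564342, has 404 nt from 4 exons and overlaps none of the others but circ_0006504.

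circ_0006504 spans 31675 nt, from 35531651 to 35563325, with 313 nt listed from 2 exons, both of which are also in circ_0006515. Its exon list stops short of the donor edge, as does that of circ_0006507, which has 261 nt from 2 exons between 35534634 and 35539653. circ_0006496, at 35518099 to 35539653, has 286 nt from 3 exons. In all, 3 LMO7 lists (circ_0006504, circ_0006507 and circ_0006510) stop short of an edge. Among all exon-derived circRNAs, 996 of 1274 lists (78.2%) reach both edges. Spliced length did not set the LMO7 rings apart, with a median of 313 nt against 320 nt for all circRNAs, and the median span was 5308 nt against 8045 nt.

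Sequencing gave 11421 to 15553 junction reads per IMPA library and 9622 to 12499 per IMA library. Levels are given as normalized CPM, which is the junction read count per 1000000 junction reads of the library after scaling by TMM factors, and since each ring has 1 junction they need no length term. No count of 1 occurs in the table, and the smallest count above 0 is 2. Taken as no read, a listed 0 leaves room for 3 reads, equal to 193 to 263 CPM for IMPA and 240 to 312 CPM for IMA, as far as counting error goes.

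The LMO7 rings were as a whole more abundant in IMA. Together they had 61, 51, 67, 64 and 72 junction reads in IMPA1 to IMPA5 and 100, 90, 137, 91 and 91 in IMA1 to IMA5. Every IMA library was above every IMPA library, although the IMA libraries had fewer junction reads in total. The summed level was 4785 ± 381 normalized CPM in IMPA and 9241 ± 984 in IMA (SD, n = 5 libraries each), a ratio of 1.93. LMO7 rings made up 0.466% ± 0.0341 of all junction reads in IMPA and 0.944% ± 0.0878 in IMA (SD, n = 5 libraries each).

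**Figure D2:**
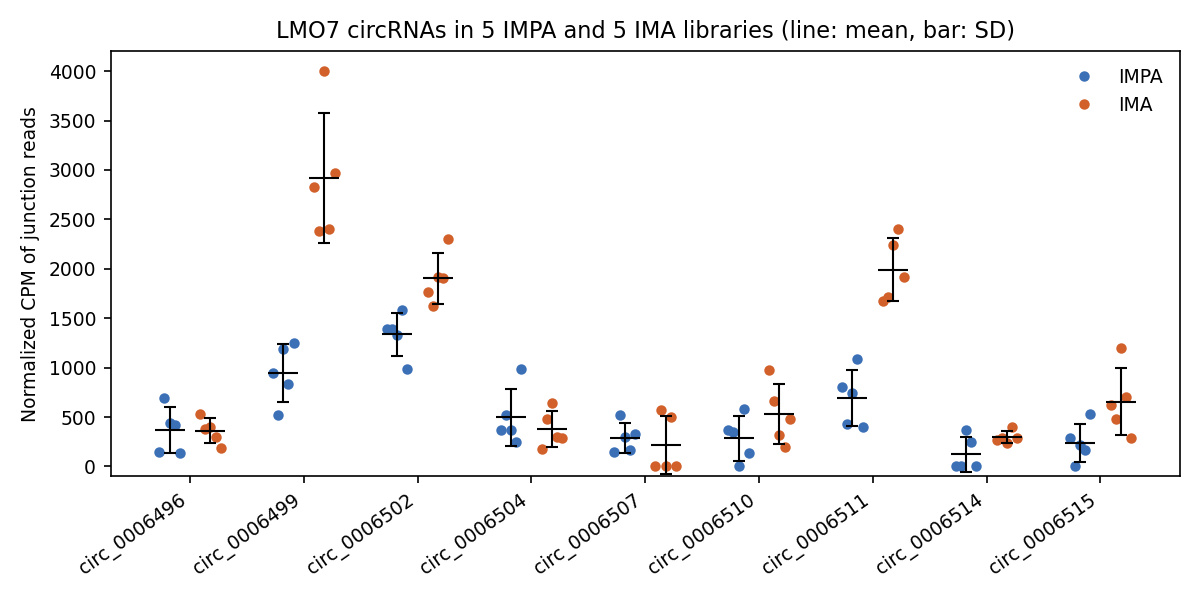
Normalized CPM of junction reads (y axis) of the 9 LMO7 circRNAs (x axis) in 5 IMPA (blue) and 5 IMA (orange) libraries, with a point per library, a line at the mean and a bar of 1 SD. circ_0006499, circ_0006502 and circ_0006511 are the rings whose groups do not overlap, with ratios of means of 3.08, 1.42 and 2.88.

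Most of this difference lay in circ_0006499 and circ_0006511. circ_0006499 had 13, 6, 16, 10 and 19 reads in IMPA1 to IMPA5 and 32, 25, 50, 24 and 31 in IMA1 to IMA5. Its level was 948 ± 293 normalized CPM in IMPA and 2917 ± 660 in IMA (SD, n = 5 libraries each), 3.08 times as high. IMA3 stood highest, at 4002, and the lowest IMA library, at 2381, was still above the highest IMPA library, at 1250. circ_0006511 had 11, 5, 10, 13 and 6 reads in IMPA1 to IMPA5 and 19, 18, 28, 24 and 20 in IMA1 to IMA5. Its level was 692 ± 285 normalized CPM in IMPA and 1991 ± 321 in IMA (SD, n = 5 libraries each), 2.88 times as high, and the groups did not overlap.

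circ_0006514, the third ring with the same acceptor, was among the scarcest. It had 0, 0, 5, 3 and 0 reads in IMPA1 to IMPA5 and 3, 3, 3, 4 and 3 in IMA1 to IMA5. It was thus counted in every IMA library and in 2 of 5 IMPA libraries, but the groups overlapped and 5 of its 7 counts above 0 were no more than the 3 reads for which a listed 0 leaves room. Summed over the acceptor at 35552054, the level was 1764 ± 529 normalized CPM in IMPA and 5203 ± 791 in IMA (SD, n = 5 libraries each), 2.95 times as high.

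The family with the acceptor at 35539653 held its level more closely. circ_0006502 had 19, 16, 18, 19 and 15 reads in IMPA1 to IMPA5 and 20, 17, 24, 19 and 24 in IMA1 to IMA5. Its level was 1336 ± 217 normalized CPM in IMPA and 1902 ± 254 in IMA (SD, n = 5 libraries each), 1.42 times as high. The groups did not overlap in normalized CPM, although their read counts did. With clean reads as library sizes the fitted log2 fold change of circ_0006502 was 0.17, and with uniquely mapped reads it was 0.70. Overlap under these library sizes was not tested. circ_0006496 had 2, 8, 6, 5 and 2 reads in IMPA1 to IMPA5 and 6, 4, 5, 3 and 2 in IMA1 to IMA5, and its mean levels, 367 and 361 normalized CPM, lay within the spread of either group. circ_0006507 had 2, 6, 4, 2 and 5 reads in IMPA1 to IMPA5, and in IMA it had 6 reads in IMA2, 5 in IMA4 and 0 in the other 3 libraries. The family summed to 1995 ± 448 normalized CPM in IMPA and 2477 ± 171 in IMA (SD, n = 5 libraries each), which is 1.24 times as high, with overlapping groups.

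The rings with an acceptor of their own also overlapped between the groups. circ_0006504 had 5, 6, 5, 3 and 15 reads in IMPA1 to IMPA5 and 2, 5, 8, 3 and 3 in IMA1 to IMA5. Its mean level was lower in IMA, at 376 against 499 normalized CPM, and this order rested on IMPA5, without which the fitted log2 fold change was 0.01. circ_0006510 had 5, 4, 0, 7 and 2 reads in IMPA1 to IMPA5 and 11, 7, 4, 2 and 5 in IMA1 to IMA5. circ_0006515 had 4, 0, 3, 2 and 8 reads in IMPA1 to IMPA5 and 7, 5, 15, 7 and 3 in IMA1 to IMA5, and its mean level was 2.72 times as high in IMA, but the lowest IMA library lay within the IMPA range.

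The order of the rings changed between the stages. In IMPA circ_0006502 led at 1336 normalized CPM, followed by circ_0006499 at 948 and circ_0006511 at 692, and each of these neighbours overlapped over the libraries. In IMA circ_0006499 led at 2917, followed by circ_0006511 at 1991 and circ_0006502 at 1902, again with each neighbour overlapping. These were the 3 rings that stood clear of the other 6 in IMA, where the lowest library of circ_0006502 had 1619 normalized CPM and the highest of the next ring, circ_0006515, had 1201. Over all 10 libraries, circ_0006499 ranked 80th, circ_0006502 107th and circ_0006511 157th of 1327 circRNAs by junction reads, whereas circ_0006514 ranked 1204th.

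The fit across all circRNAs (edgeR quasi-likelihood, 1294 tested, all 9 LMO7 rings among them) gave the following log2 fold changes of IMA over IMPA. They were 1.46 (SE 0.20) for circ_0006499 and 1.34 (SE 0.23) for circ_0006511. These values are shrunk by a prior count of 2, and with a prior count of 0.125 they were 1.60 and 1.53. circ_0006515 had 0.99 (SE 0.39), circ_0006514 0.67 (SE 0.44), circ_0006510 0.65 (SE 0.41) and circ_0006502 0.47 (SE 0.19). The value of circ_0006496 was 0.02, and circ_0006504 and circ_0006507 had -0.30 each (SE 0.36 and 0.46). Only the first pair, 2 of 9, was called at an adjusted p under 0.01, where 0.927% of all circRNAs were called and 0.464% were called higher in IMA. The normalized levels of the groups were free of overlap and higher in IMA for 3 of 9 rings, against 2.24% of all. The log2 fold change was above 0 for 7 of 9 rings, against 44.9% of all, and the median was 0.65 for the LMO7 rings and -0.06 for all. These counts come from the contrast on which LMO7 was chosen, and nothing is read from them.

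The composition of the LMO7 junction reads differed as well. circ_0006499 and circ_0006511 together held 39.3%, 21.6%, 38.8%, 35.9% and 34.7% of them in IMPA1 to IMPA5 and 51.0%, 47.8%, 56.9%, 52.7% and 56.0% in IMA1 to IMA5. The groups did not overlap, with means of 34.1% ± 7.25 and 52.9% ± 3.74 (SD, n = 5 libraries each). Single libraries hold few reads, and the exact (Clopper-Pearson) 95% interval was 27.1% to 52.7% for IMPA1 and 37.1% to 58.6% for IMA2, so that these intervals overlapped. Such intervals and the limits for a count of 0 cover counting error only.

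**Figure D3:**
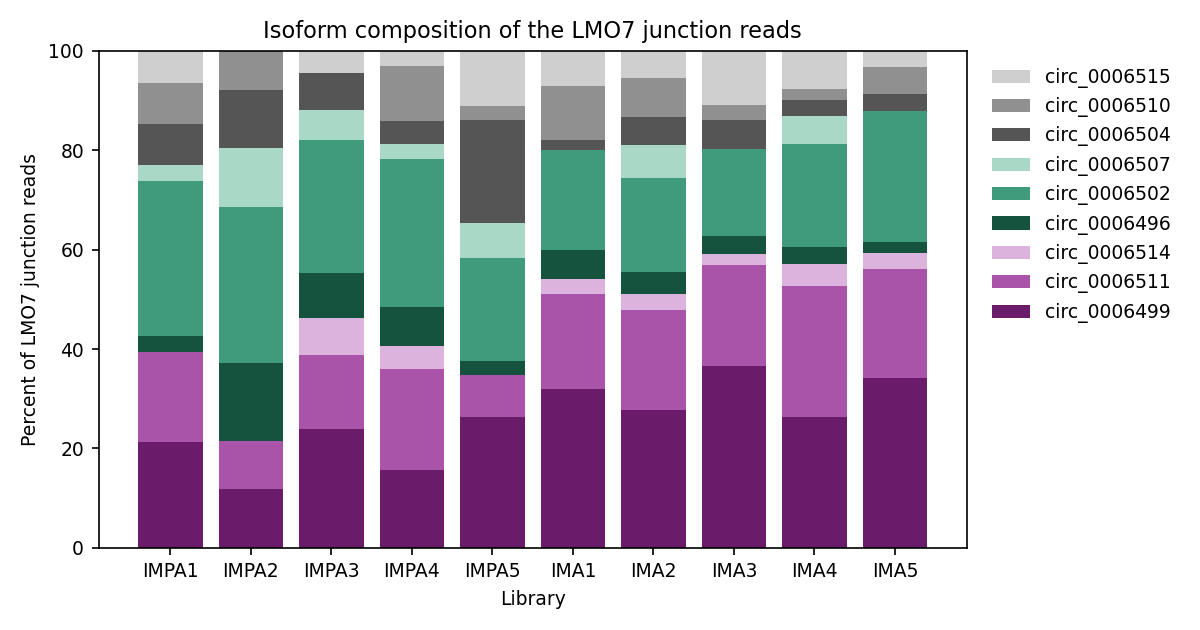
Percent of LMO7 junction reads (y axis) held by each of the 9 circRNAs in each library (x axis), with the rings of the acceptor at 35552054 in purple, those of the acceptor at 35539653 in green and the others in grey. The purple part takes a mean of 36.5% in IMPA and 56.1% in IMA, and the green part takes 41.9% and 27.1%.

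By acceptor, the share of the edge at 35552054 was 36.5% ± 9.31 in IMPA and 56.1% ± 3.54 in IMA, and that of the edge at 35539653 was 41.9% ± 10.4 and 27.1% ± 3.66 (SD, n = 5 libraries each). Neither share overlapped between the groups. Within the first family the balance differed by less than the spread between libraries. Of the reads of circ_0006499 and circ_0006511, those of circ_0006499 made up 57.9% ± 11.98 in IMPA and 59.2% ± 5.59 in IMA (SD, n = 5 libraries each). For rings with a shared donor, circ_0006502 held 73.3% ± 13.9 and 83.7% ± 7.12 of the reads of circ_0006502 and circ_0006504, and circ_0006511 held 72.9% ± 16.7 and 79.0% ± 11.7 of the reads of circ_0006511 and circ_0006510 (SD, n = 5 libraries each), both with overlapping groups. Without circ_0006499 and circ_0006511, the other 7 rings summed to 3145 ± 311 normalized CPM in IMPA and 4333 ± 324 in IMA (SD, n = 5 libraries each), 1.38 times as high and without overlap.

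Non-junction reads are the reads that cross the same splice sites without the back-splice, and linear LMO7 RNA is their usual source. The edges at 35531651 and 35563325 are also edges of internal exons listed for circ_0006499 and circ_0006515, so reads spliced forward there could come from those rings, and the share of such reads was not tested. They were deposited only for libraries in which the ring had junction reads, so that circ_0006496, circ_0006499, circ_0006502, circ_0006504 and circ_0006511, which had both in all 10 libraries, could be compared. Rings with a shared edge count the same non-junction reads again, and their values are therefore not independent of each other. The sites of circ_0006499 carried 1185, 983, 1379, 1133 and 1558 non-junction reads in IMPA1 to IMPA5 and 954, 961, 1205, 917 and 946 in IMA1 to IMA5. Against these stood 6 to 50 junction reads per library.

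For circ_0006499, circ_0006502 and circ_0006511 the fitted differences of the non-junction reads were smaller than those of the junction reads. For circ_0006496 the non-junction value was larger (0.12 against 0.02). For circ_0006504 the signs were opposite, at 0.19 for non-junction and -0.30 (SE 0.36) for junction reads, and the latter rested on IMPA5. The direction of the non-junction differences depended on the scaling. Relative to the non-junction reads of all 690 circRNAs with values in every library, the log2 fold changes were 0.26 (SE 0.06) for circ_0006499, 0.26 (SE 0.05) for circ_0006511, 0.19 (SE 0.05) for circ_0006504, 0.17 (SE 0.05) for circ_0006502 and 0.12 (SE 0.05) for circ_0006496. All 5 were above 0, against 50.4% of all. With the study's clean reads as library sizes all 5 were below 0, from -0.39 to -0.53, where the median of all was -0.64. In the study's mapping, a smaller share of clean reads mapped in every IMA library than in any IMPA library. The part of this gap in the shift was not tested. With TMM scaling, 3 of 5 were called at an adjusted p under 0.01, all higher in IMA. Of all, 21.7% were called and 11.6% were called higher. Without TMM scaling 1 of the 5 was called. Nothing is read from these counts either. Called were circ_0006499, circ_0006504 and circ_0006511, and the call of circ_0006504 was lost when any of IMPA1, IMPA2, IMA2, IMA3, IMA4 or IMA5 was left out. In such bulk samples, fewer cells of a type and less RNA per cell cannot be told apart.

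**Figure D4:**
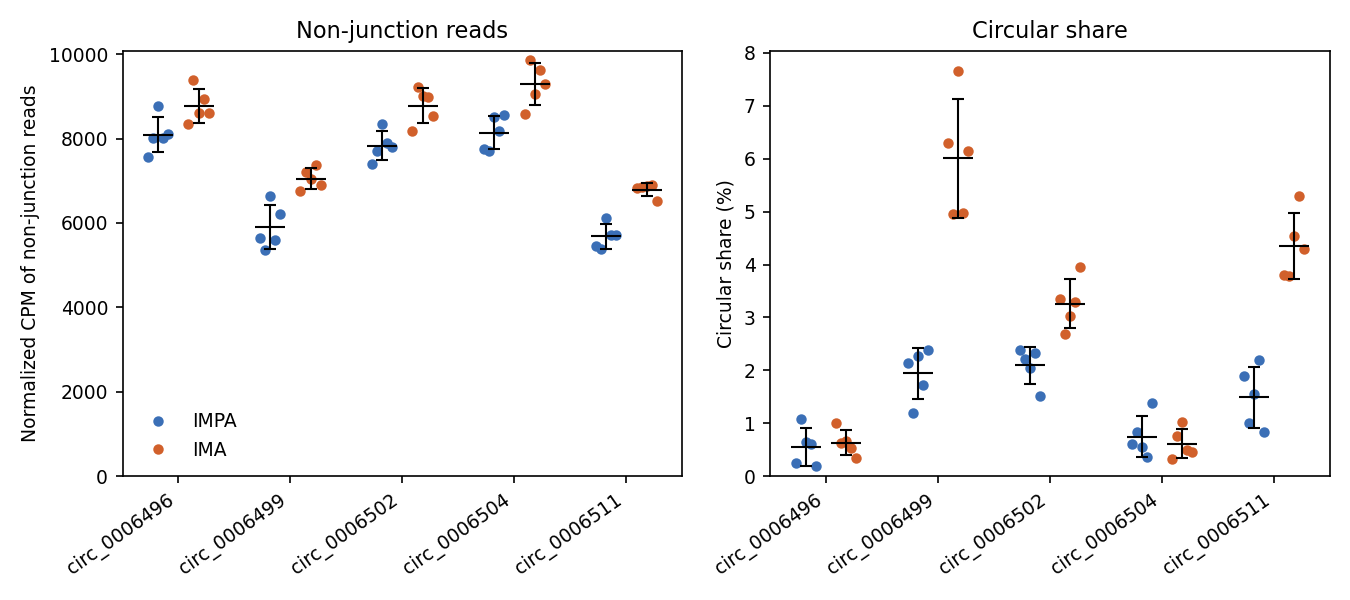
Left, normalized CPM of non-junction reads, and right, circular share in percent, of the 5 LMO7 circRNAs that have junction and non-junction reads in every library, in IMPA (blue) and IMA (orange), with a point per library, a line at the mean and a bar of 1 SD. Non-junction levels are 1.08 to 1.196 times as high in IMA (the order turns with clean reads as library sizes), while the circular share of circ_0006499 goes from 1.95% to 6.004%.

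For the circular share each junction read was given a weight of 2, since non-junction reads are counted at both edges of a ring, and this weighted count was divided by its total with the non-junction reads. Being a ratio within a library, it does not depend on scaling. For circ_0006499 it was 2.15%, 1.21%, 2.27%, 1.73% and 2.38% in IMPA1 to IMPA5 and 6.29%, 4.95%, 7.66%, 4.97% and 6.15% in IMA1 to IMA5. The lowest IMA library was thus above the highest IMPA library by more than the whole IMPA range. The means were 1.95% ± 0.481 and 6.004% ± 1.12 for circ_0006499, 1.49% ± 0.579 and 4.34% ± 0.622 for circ_0006511, and 2.10% ± 0.355 and 3.26% ± 0.464 for circ_0006502 (SD, n = 5 libraries each), and the groups did not overlap for any of these. For circ_0006496 (0.559% and 0.638%) and circ_0006504 (0.751% and 0.614%) they overlapped. The summed share of all 690 circRNAs with values in every library was also higher in IMA, without overlap of the groups. Lack of overlap is therefore not read as particular to these rings.

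Even in IMA the circular shares of these 5 rings were among the lower ones. Of the 690 circRNAs that could be compared in this way, 0.435% had a lower mean share in IMA than circ_0006504, 0.580% a lower one than circ_0006496, 8.99% than circ_0006502, 13.3% than circ_0006511 and 20.3% than circ_0006499. In IMPA 6.52% were lower than circ_0006499 and 4.64% lower than circ_0006511. Summed over the 5 LMO7 rings the share was 1.33% ± 0.0668 in IMPA and 2.79% ± 0.297 in IMA, a ratio of 2.10. Over all 690 it was 9.27% ± 0.428 and 10.6% ± 0.293 (SD, n = 5 libraries each), a ratio of 1.14. The median share of the 690 was 10.4% in IMPA and 12.3% in IMA, again without overlap of the groups. How many single circRNAs had groups free of overlap in this share was not counted.

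No circRNA of the listed genes related to LMO7 passed the test. Of 48 genes of LIM domain proteins, MICAL3 and LIMS1 hosted a circRNA, and neither was called (edgeR, adjusted p under 0.01), nor was either called by DESeq2 or limma voom. An unadjusted p under 0.05 was reached by 0 of the 2 with TMM scaling, and by 1 with uniquely mapped or with clean reads as library sizes. Their log2 fold changes were -0.13 (SE 0.20) for MICAL3, of a family of enzymes that oxidize actin, and 0.22 (SE 0.21) for LIMS1, which acts in focal adhesions. Of 52 gene symbols for adherens junctions, the actin cytoskeleton and the nuclear envelope, 10 hosted 15 circRNAs. Some of the 52 are older names of genes also listed by their current name, so the genes are fewer. Of the 15 circRNAs, 0 were called by edgeR, DESeq2 without independent filtering or limma voom, and 2 had an unadjusted p under 0.05 in edgeR. Of the 15, 4 had a log2 fold change above 0, with a median of -0.12 against -0.06 for all. With uniquely mapped reads as library sizes 8 were above 0, and with clean reads 0 were (median -0.39). Among them were circRNAs of NECTIN3, an adhesion receptor that afadin binds, at 0.20 (SE 0.33) and -0.38 (SE 0.45), and of CDH2, N-cadherin, at 0.02.

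Among the marker lists of cell types, those of striated muscle and of adipocytes had higher sums in every IMA library than in any IMPA library. The adipocyte sums came from PLIN2 alone. Of 42 striated muscle genes 6 hosted a circRNA, each 1, and the log2 fold change was above 0 for 6 of 6, with a median of 1.42, also with MYBPC1 at its lower bound. With clean reads as library sizes it was above 0 for 5 of 6. circRNAs of MYBPC1, a myosin-binding protein of the sarcomere, and MYPN, a protein of the Z-disc, were called higher in IMA (edgeR, adjusted p = 0.000189 and 0.000922), 2 of 6 where 0.464% of all circRNAs were. DESeq2 without independent filtering called both, its filtered test gave none of the 6 an adjusted p, and limma voom called 1, that of MYBPC1. The MYBPC1 circRNA passed the filter of 5 libraries through IMA alone. The study lists the circRNAs of MYBPC1, MYPN, FHOD3 and STAC as upregulated in these same libraries. The gene list was chosen with such results known, so nothing is read from these counts. For MYPN the log2 fold change was 1.75 (SE 0.32). For MYBPC1 the reads were 0 throughout IMPA and 5 to 10 per IMA library, at least 2.98-fold higher when taken against 3 reads per IMPA library, and for PAX7, a marker of muscle stem cells, they were 11 to 19 and 8 to 19. The muscle list summed to 1023 to 2168 normalized CPM in IMPA and 3047 to 5274 in IMA. The part of this list in the LMO7 values was not tested. No circRNA of MYOD1, MYOG, TTN, DES or 32 further genes of this list was in the table, which says nothing about their linear RNA.

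Adipocyte genes left few rings to look at. Of 24 such genes only PLIN2, which coats lipid droplets, hosted circRNAs, and the 1 that could be tested had 2 to 4 reads per IMPA library and 6 to 10 per IMA library (log2 fold change 1.16, SE 0.34, edgeR adjusted p = 0.0752). The adipocyte list summed to 146 to 347 normalized CPM in IMPA and 571 to 901 in IMA. Of 21 fibroblast and matrix genes 7 hosted 9 circRNAs, with 1 called higher, that of COL5A1, a fibrillar collagen chain (edgeR, log2 fold change 2.03, SE 0.40, adjusted p = 0.00207, also called by limma voom and by DESeq2 without independent filtering), where 0.464% of all were called higher, and sums of 3295 to 5627 and 4987 to 6208. The study also lists the COL5A1 circRNA as upregulated in these same libraries, so nothing is read from its call. The part of the adipocyte and fibroblast lists in the LMO7 values was not tested either.

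Across the 10 libraries, the log2 level of circ_0006499 ran most nearly with that of circ_0008259 of VASH2 (Pearson r = 0.913), then with those of circRNAs of SNX13 (0.857), USP3 (0.841), MED17 (0.834) and NARS2 (0.780), out of 322 circRNAs from other genes with a mean count of at least 10. For circ_0006511 the order was USP3 (0.898), VASH2 (0.861), MED17 (0.811), EPB41L4A (0.789) and NARS2 (0.772). All are descriptions, and they hold the step between the groups. circ_0006499 and circ_0006511 had r = 0.847 over all libraries but 0.09 within the 5 IMPA and 0.26 within the 5 IMA libraries, and for VASH2 and circ_0006499 the value within IMA was -0.887. Over all these circRNAs of other genes the values within a group ran from -0.887 to 0.758. USP3 and circ_0006511 had 0.727 within IMPA and 0.752 within IMA. The libraries also share the depth and scaling of all their circRNAs.

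Many of the predicted miRNA pairs were shared between rings that list a common exon. The list, made by the authors with miRanda and TargetFinder and deposited as names alone, held 94 pairs of LMO7 rings with 50 miRNAs through the spliced sequence. Of these miRNAs, 28 were paired with at least 2 LMO7 rings. circ_0006499 had 23 pairs, circ_0006502 17, circ_0006514 15, circ_0006511 and circ_0006515 12 each, circ_0006504 8, circ_0006507 4 and circ_0006496 3. The LMO7 median was 12 and that of all circRNAs was 9. circ_0006510, with its 30 nt, had 0 pairs and was 1 of 14 such circRNAs.

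**Figure D5:**
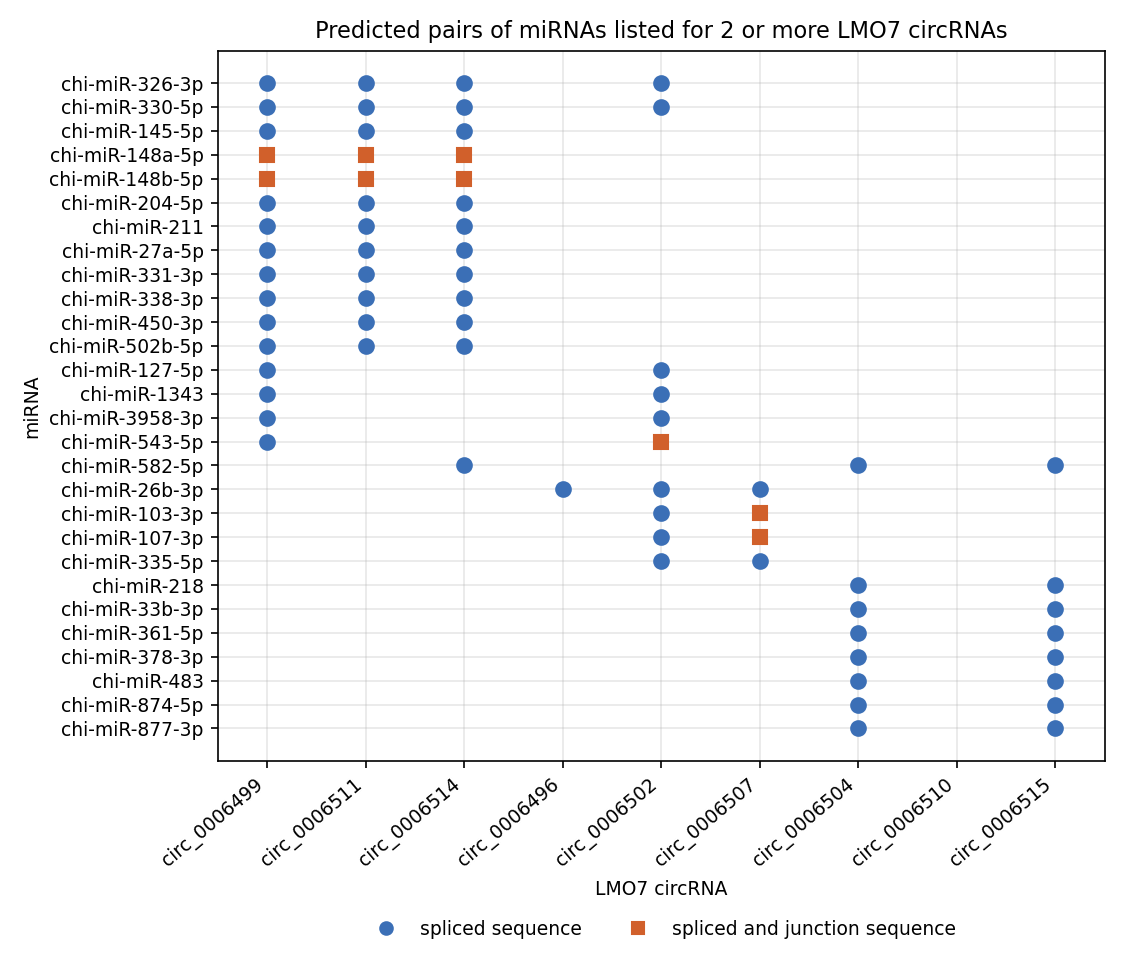
Predicted pairs (marks) between the LMO7 circRNAs (x axis) and the miRNAs listed for 2 or more of them (y axis), with orange squares where the pair is also listed for the sequence around the back-splice junction. The upper block of 12 miRNAs covers circ_0006499, circ_0006511 and circ_0006514 alike, and the lowest marks join circ_0006504 and circ_0006515.

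All 12 miRNAs of circ_0006511 were also listed for circ_0006499 and circ_0006514, and 10 of the 12 for no other LMO7 ring. They were miR-145-5p, miR-148a-5p, miR-148b-5p, miR-204-5p, miR-211, miR-27a-5p, miR-331-3p, miR-338-3p, miR-450-3p and miR-502b-5p, while miR-326-3p and miR-330-5p were also listed for circ_0006502, which has no exon in common with circ_0006511 or circ_0006514. What these 3 rings share is the 279-nt exon at the acceptor. miR-204-5p and miR-211, paired with the same rings, belong to one family, as do miR-148a and miR-148b. The last pair was also listed for the junction sequence of all 3 rings.

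The 8 miRNAs of circ_0006504 were all listed for circ_0006515, which holds both of its exons. One of the 8, miR-582-5p, was also listed for circ_0006514, with which they share no exon. The 4 of circ_0006507, which include miR-103-3p and miR-107-3p at its junction, were all listed for circ_0006502. circ_0006499 and circ_0006502, whose exons of 111 and 309 nt share the downstream edge at 35531651, shared 6 miRNAs. Of the 6, 4 were not listed for circ_0006511, while miR-326-3p and miR-330-5p were also listed for circ_0006511 and circ_0006514, which lack these exons. The only miRNA listed for all of circ_0006496, circ_0006502 and circ_0006507 was miR-26b-3p. A junction pair was listed for 5 of 9 LMO7 rings, against 75.0% of all circRNAs. None of these pairs was measured in the libraries described here.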

How the data were processed

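RNA depleted of ribosomal RNA from 5 IMPA and 5 IMA libraries was sequenced by the authors, who mapped clean reads with HISAT2 and kept circRNAs located alike by find_circ (read count of at least 2) and CIRI2. The counts are junction and non-junction reads per circRNA as deposited, without normalization. The deposited TPM equals the CPM of the junction reads, with no term for length. The table gives positions on RefSeq chromosome sequences, and the sources used here name neither the genome build nor the tool versions. The circRNA table also names 10 further samples, which were not used here.

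Differences were fitted with edgeR 4.0.16 in R 4.3.3 (TMM, glmQLFit, glmQLFTest, prior count 2) over 1294 circRNAs, those that had reads in 5 or more libraries, with Benjamini-Hochberg adjustment at 0.01. The SE is the log2 fold change over the square root of the F statistic. Non-junction reads are missing, not 0, where a library has no junction reads, so their fit used the 690 circRNAs with values in all libraries in place of the planned filter. The fit was checked on simulated data. The members, the gene lists and the rules for naming circRNAs were chosen with earlier results of these data known. By these rules all LMO7 rings, the members of the lists and the 5 circRNAs of other genes with the highest Pearson r were named, and for long lists examples were chosen after their values were seen. Libraries of a group were compared by a chi-square over their counts, which gave 1.18 to 1.55 per degree of freedom, and no pair was identical. Alternatives were DESeq2 1.42.0, limma 3.58.1 voom, other library sizes and filters, other weights of the circular share, a block for the replicate number, and fits that left out a library. The prior count of 0.125, DESeq2 without independent filtering and clean reads as library sizes of the non-junction reads were chosen after seeing the data. Primer sequences come from the study's supplement. Shares and figures were made with Python 3.11.15.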

Additional observations from a re-analysis of the deposited data

Results flagged for a closer look

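Of 92 groups of 5 libraries tested for a library far from the others, 4 were flagged, and chance flags about 1 in 20. The LMO7 rings together stood at 10965 normalized CPM in IMA3, where the other IMA libraries had 8570 to 9112, and at 1.10% of all junction reads, where the others had 0.889% to 0.946%. The summed share of circ_0006499 and circ_0006511 in the LMO7 junction reads was 21.6% in IMPA2, below the 34.7% to 39.3% of the other IMPA libraries. The non-junction reads of circ_0006511 gave 6520 normalized CPM in IMA5, below the 6819 to 6901 of the other IMA libraries. The lower share in IMPA2 made the difference between the groups larger, and without that library the difference of the means was 15.7 percentage points in place of 18.8.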

How the results depend on the processing

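The calls of LMO7 rings below are no support for a difference, since LMO7 was chosen on these junction reads. circ_0006499 was past an adjusted p of 0.01 in 22 of 22 alternative settings (log2 fold change 1.15 to 1.68), and circ_0006511 in the 21 that gave it an adjusted p (1.05 to 1.58 over 22). DESeq2's Wald test gave an adjusted p for 2 LMO7 rings and called 1, circ_0006499, and without its independent filtering it called 2. With the replicate number as a block 2 rings were called as before, and 4 loci in place of 3 by non-junction reads. Residual correlations between libraries of one number were -0.05 to 0.01. Most circRNAs had few reads, and libraries of different numbers were not compared. These values therefore cannot tell whether the numbers pair libraries. Leaving out a library, 2 rings were called each time and 2 to 4 loci by non-junction reads. Calls by non-junction reads were 1 without TMM and 1 with uniquely mapped reads as library sizes, and 5, all lower in IMA, with clean reads, where the log2 fold changes were -0.53 (circ_0006496), -0.39 (circ_0006499), -0.48 (circ_0006502), -0.46 (circ_0006504) and -0.39 (circ_0006511).

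The junction value of circ_0006496 was -0.20 with clean reads and -0.14 to 0.25 leaving out a library, and that of circ_0006504 was -0.51 to 0.012, above 0 without IMPA5. Across scalings the median of all circRNAs was -0.06 (TMM), 0.13 (uniquely mapped reads) and -0.32 (clean reads), and calls over all circRNAs were 6 higher and 6 lower with TMM, 6 and 2 without it, 8 and 1 with uniquely mapped reads and 5 and 20 with clean reads. For non-junction reads they were 80 and 70 with TMM, 48 and 106 without it, 49 and 93 with uniquely mapped reads and 3 and 592 with clean reads. The difference in the summed circular share of all LMO7 rings, 1.13 percentage points, was 0.575 with a weight of 1 for a junction read, 1.46 over the rings with reads in every library and 1.03 to 1.22 leaving out a library. In the sum of all LMO7 rings, a ring without junction reads in a library adds no non-junction reads there. The libraries were thus summed over different rings, except in the value of 1.46. The difference in the share of circ_0006499 and circ_0006511, 18.8 percentage points, was 15.7 to 20.1 leaving out a library. The cause of these shifts, with the lower share of mapped clean reads in the IMA libraries among the candidates, was not tested. The LMO7 rings had 0 to 50 reads per library, and depth sets how closely the levels of the scarce ones are known.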
